A study of Mus musculus with 16 samples.

Results

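Accessible chromatin was examined around 9 genes of the insulin-like growth factor (IGF) axis: the ligands Igf1 and Igf2, the noncoding RNA H19 that neighbours Igf2, the receptors Igf1r and Igf2r, and the binding proteins Igfbp2, Igfbp3, Igfbp4 and Igfbp5. A peak was assigned to a gene when its summit lay in the annotated gene body or within 50 kb on either side (mm10, GENCODE M21). Peaks of the libraries compared were merged into 80290 regions across the genome, and 100 of these lay in the windows of the 9 genes, 10 of them in the windows of 2 neighbouring genes. Of 55450 annotated genes, 40761 had at least 1 peak in such a window.

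IGF1 and IGF2 are secreted peptides that bind the receptor tyrosine kinase IGF1R and signal through PI3K-AKT and MAPK, and in skeletal muscle this pathway is known to support both the proliferation of myoblasts and their differentiation. IGF2R takes up IGF2 and delivers it to lysosomes without comparable signaling, and the IGFBPs bind IGFs outside the cell and either limit or prolong their action. Igf2 and H19 are reciprocally imprinted, and Igf2r is imprinted under the control of the antisense noncoding RNA Airn. The peak lists do not separate the parental alleles.

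ATAC-seq, in which a transposase inserts sequencing adapters into open DNA, had been performed on C2C12 iMyoD1 cells, a polyclonal population of mouse C2C12 myoblasts that carries doxycycline-inducible Halo-tagged MyoD1 beside the endogenous Myod1 gene. The 4 groups had 4 replicates each and all carried the transgene: vehicle in growth medium (GM no dox), doxycycline in growth medium (GM +dox), vehicle with serum withdrawal (DM no dox) and doxycycline with serum withdrawal (DM +dox), each for 24 h. Seeding was at 75000 cells for GM and 300000 for DM, so that density and medium cannot be told apart in a comparison of DM with GM. As in the study's methods, the initial replicate of both DM groups was left out. This left 14 of 16 libraries, and values below exclude replicate 1 of DM unless all 16 libraries are named. The labels call the replicates biological without saying what separates them, and p-values measure the spread between these libraries.

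The 14 lists held between 14710 and 58587 peaks, and background coverage recovered from the peak statistics ranged from 0.339 to 1.13 fragments per base. The 2 libraries left out had 1287 and 14236 peaks. Because a longer list reaches weaker peaks, each comparison was made on all deposited peaks (full lists) and on the 14710 strongest peaks of each library by −log10 p (equal lists), the length of the shortest list. Of 8 myoblast markers, Myod1 and Chrna1 had a peak at the start in all 14 libraries, in full and in equal lists. In the full lists Des had it in 13, Cdh15 in 10, Pax7 in 9, Myf5 in 6, Vgll2 in 2 and Myog in 0 libraries, and in the equal lists Cdh15 had it in 3 and the other 5 in 0. Among markers of other cells, Cdh5, Ptprc, Cd3e, Spi1, Sox10, Epcam, Cdh1, Adipoq and Dcn had no peak at the start in any of the 14, whereas in the full lists Syt1 had it in 14, Pparg and Pdgfra in 13, Col1a1 in 12, Pecam1 in 8, and Tek and Rbfox3 in 1 library each. In these bulk samples, fewer open cells and less opening per cell cannot be told apart.

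The sequences of 6 regions are given here because the results turn on them: the first 2 differed in presence between groups in the equal lists, and the other 4 were the strongest of their genes and held a searched motif. Each is 201 bases of the mm10 plus strand centred on the summit, with matches on either strand to CAGCTG (the E-box preferred by MyoD1), TGANTCA (AP-1), GGAATG (TEAD) or GGNGGCAG (part of the CTCF core) in capitals. The region 22.0 kb upstream of Igf2r held none of these.
Igfbp4 +6.04 kb, chr11:99047184-99047384: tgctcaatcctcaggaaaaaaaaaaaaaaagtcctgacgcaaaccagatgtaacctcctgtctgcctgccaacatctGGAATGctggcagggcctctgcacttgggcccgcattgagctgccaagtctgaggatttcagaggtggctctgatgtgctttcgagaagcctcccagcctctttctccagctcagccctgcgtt
Igf2r −22.0 kb, chr17:12791562-12791762: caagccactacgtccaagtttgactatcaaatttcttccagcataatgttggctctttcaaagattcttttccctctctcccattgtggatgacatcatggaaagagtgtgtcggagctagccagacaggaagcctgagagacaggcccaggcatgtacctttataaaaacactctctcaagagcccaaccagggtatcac
Igfbp3 −24.0 kb, chr11:7237845-7238045: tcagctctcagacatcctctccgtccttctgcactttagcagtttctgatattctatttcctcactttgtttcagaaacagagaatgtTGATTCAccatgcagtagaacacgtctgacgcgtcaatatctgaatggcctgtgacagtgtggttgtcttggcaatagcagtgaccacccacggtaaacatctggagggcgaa
Igf2r −13.4 kb, chr17:12783008-12783208: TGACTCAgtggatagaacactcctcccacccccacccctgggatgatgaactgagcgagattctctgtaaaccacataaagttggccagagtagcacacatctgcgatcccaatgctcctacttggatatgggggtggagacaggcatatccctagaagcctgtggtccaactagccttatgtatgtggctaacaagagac
Igf1 +22.0 kb, chr10:87880123-87880323: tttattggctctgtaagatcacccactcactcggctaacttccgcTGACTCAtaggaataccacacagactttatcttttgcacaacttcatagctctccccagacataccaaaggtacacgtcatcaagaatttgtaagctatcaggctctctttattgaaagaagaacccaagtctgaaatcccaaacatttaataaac
H19 +27.0 kb, chr7:142551043-142551243: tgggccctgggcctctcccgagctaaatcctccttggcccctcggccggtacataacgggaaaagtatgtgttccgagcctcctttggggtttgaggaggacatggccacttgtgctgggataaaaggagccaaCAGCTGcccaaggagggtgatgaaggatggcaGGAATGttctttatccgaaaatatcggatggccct

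The 9 windows differed widely in how much accessible chromatin they held. Igf1r had 24 regions, 18 of them in the gene body, and Igf2r had 22, 15 in the gene body. Igfbp2 had 13 regions, Igfbp3 and Igfbp4 12 each, Igfbp5 9, H19 8, Igf1 7 and Igf2 3. Per 100 kb of window, Igf2r had the most at 11.8 and Igf2 the fewest at 2.59. Of the 100 regions, 7 had a peak in all 14 libraries (7%, against 13.8% of all 80290 regions) and 26 in a single library (26% against 23.5%). A summit lay within 1 kb of an annotated start of any gene in 21 regions (21% against 22.4%). In the equal lists, 21 of the 100 appeared in at least 1 library, and the windows of Igf2 and Igfbp5 had none. Median width was 405.5 bp (399 bp over all regions) and median GC content 50.2% (50.7%).

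**Figure D1:**
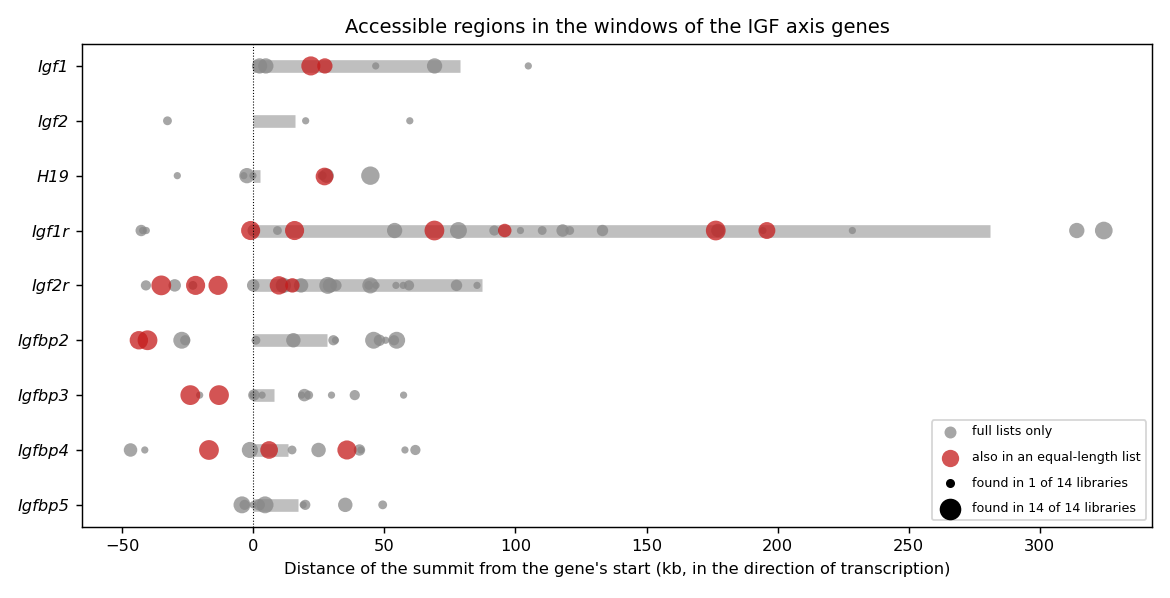
Each point is an accessible region, placed on the horizontal axis by the distance of its summit from the gene's start in kb, with 1 row for each of the 9 genes and the gene body as a grey bar. Point size gives the number of the 14 libraries with a peak, and red marks the 21 regions that also appeared in an equal list, which lie mostly away from the starts.

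E-boxes stood at shares close to those of the genome near these summits. Within 100 bp of the summit, on either strand, CAGCTG was found in 17% of the 100 regions and in 19.6% of all regions, and the general E-box CANNTG, which includes CAGCTG, in 71% and 67.9%. GGAATG stood at 17% against 17.5%, and GGNGGCAG at 11% against 8.79%. TGANTCA was found in 21% of the member regions against 31.4% of all, and a MEF2 motif in 3% against 0.578%, which is 3 regions. Those 3 regions had a peak in 1, 1 and 4 libraries. Among regions in at least 1 equal list, TGANTCA was found in 7 of 21 member regions against 33.5% of all. The MEF2 motif was found there in 0 of 21 against 0.497%. These shares are descriptions of letters in a window and were not tested.

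Igf1, the growth factor made by muscle and liver, had 7 regions, 6 of them in the gene body. Its strongest was in intron 2, 22.0 kb from the start (chr10:87879895-87880661), with a TGACTCA match, and had a peak in 13 libraries and in 10 of the 14 equal lists. Fold enrichment there, as deposited and without adjustment for depth here and below, was 18.4, 8.94 and 16.7 in GM no dox replicates 2 to 4, with no peak in replicate 1, and 17.1, 17.5, 13.9 and 12.6 in GM +dox. In DM no dox it was 12.0, 7.0 and 8.89, and in DM +dox 21.8, 15.4 and 13.8. The DM +dox values lay above those of DM no dox, and each GM group overlapped DM +dox. A limma fit of quantile normalized values set missing peaks to the lowest fold enrichment of the list. In it DM +dox differed from DM no dox by 0.31 ± 0.53 (log2, SE, adjusted p = 0.96). The region at an alternative Igf1 start (chr10:87860230-87861063, summit 72 bp from that start, with a CAGCTG match) had a peak in the full lists of 2 GM no dox, 3 GM +dox and 3 DM +dox libraries, in none of DM no dox and in no equal list.

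Igf2, the main IGF of differentiating myoblasts, had no peak within 1 kb of any of its starts in any of the 14 libraries. The 3 regions of its window were found in 1, 1 and 2 libraries. The strongest, at −32.7 kb and 35 bp from the start of Ins2, had fold enrichments of 4.36 and 6.70 in GM +dox replicates 1 and 2.

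H19, an imprinted noncoding RNA, had a peak at its start in 1 library, GM no dox replicate 4, at a fold enrichment of 4.86. The strongest region of its window was 27.0 kb downstream (chr7:142550914-142551359), inside the annotated noncoding gene Nctc1, with a CAGCTG and a GGAATG match. It had a peak in 2 of 4 GM no dox libraries (9.35 and 8.69), in all 4 GM +dox (11.9, 16.1, 9.99 and 6.48), in 2 of 3 DM no dox (7.02 and 6.77) and in all 3 DM +dox (13.9, 8.13 and 6.83). A peak was therefore present in every +dox library and missing from 3 of the 7 libraries without dox, but only GM +dox replicate 2 had it in an equal list. Upstream of H19, 2.44 kb from the start (chr7:142580234-142580826), a region had a peak in 2 GM no dox, 3 GM +dox and 3 DM +dox libraries and in none of DM no dox. The imprinting control region of the locus is known to lie upstream of H19. No GGNGGCAG match fell within 100 bp of the summit 2.44 kb upstream. A region 3.61 kb upstream held 1 match and had a peak in 1 library only (GM +dox replicate 1, fold enrichment 3.94).

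Igf1r, the signaling receptor, held the strongest region of all 9 genes, 69.1 kb into the gene in intron 2 (chr7:68021516-68022544). It was in the equal lists of all 14 libraries and ranked between 836 and 2461 among all peaks of its library. Fold enrichment was 9.85, 19.1, 12.9 and 19.3 in GM no dox, 22.8, 22.3, 21.3 and 17.8 in GM +dox, 14.8, 16.3 and 20.2 in DM no dox, and 25.0, 21.7 and 24.2 in DM +dox. As deposited the values were higher in DM +dox than in DM no dox, but after quantile normalization across libraries the 4 comparisons gave log2 differences of 0.11 ± 0.11, 0.01 ± 0.13, 0.08 ± 0.12 and −0.01 ± 0.12 (SE), so that no change was detected. None of the motifs above was within 100 bp of its summit. A region with its summit 189 bp from the Igf1r start and with a CAGCTG match had a peak in 5 libraries, at fold enrichments of 3.03 to 4.55. A stronger region with its summit 1.00 kb upstream had a peak in 13 libraries, at 5.89 to 12.1, and in 5 equal lists. It was 1766 bp wide (chr7:67950876-67952641) and reached close to the gene start at 67952827. An alternative start 196 kb into the gene had a peak in 10 libraries.

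Igf2r, the clearing receptor, had a peak at its start in only 5 libraries, 1 GM no dox (5.27), 1 GM +dox (3.75) and all 3 DM +dox (4.27, 6.39 and 4.23). An alternative start 18.2 kb into the gene, with a CAGCTG match, had a peak in 7 libraries. Stronger regions lay upstream of Igf2r and inside Airn. That at −13.4 kb was in 12 of the 14 equal lists, with fold enrichments of 6.05 to 15.9 in the 3 GM no dox libraries with a peak, 14.5 to 19.6 in GM +dox, 9.0 to 16.3 in DM no dox and 18.9 to 27.0 in DM +dox. Values as deposited overlapped between GM groups and did not between the DM groups, and the region was in the equal lists of all 6 DM libraries. In the limma fit described for Igf1, DM +dox differed from DM no dox by 0.33 ± 0.52 (log2, SE, adjusted p = 0.96).

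Among the binding proteins, accessibility also lay mainly outside the starts, as over the genome, where 22.4% of regions lay within 1 kb of a start. Igfbp2, which binds IGF2 with high affinity, had a start peak in 2 libraries, and its strongest region, 43.6 kb upstream (chr1:72780719-72781150), was in 6 of 14 equal lists. Igfbp3, the main carrier of IGFs in serum, had start peaks in 4 libraries at 202 bp from the start and in 1 at 114 bp. Its region 24.0 kb upstream (chr11:7237636-7238159), with a TGATTCA match, was in all 14 equal lists. Fold enrichment there was 8.80, 19.6, 11.4 and 18.4 in GM no dox, 15.9, 25.5, 16.4 and 13.4 in GM +dox, 13.1, 12.7 and 16.1 in DM no dox, and 23.3, 17.7 and 15.2 in DM +dox. The 4 groups overlapped. Igfbp5, the IGFBP most tied to muscle differentiation, had a start peak in 1 library (DM no dox replicate 4) and no region in any equal list. In the window of Igfbp4 the strongest region, in all 14 equal lists, sat 151 bp from the start of the neighbouring Top2a, a proliferation gene.

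**Figure D2:**
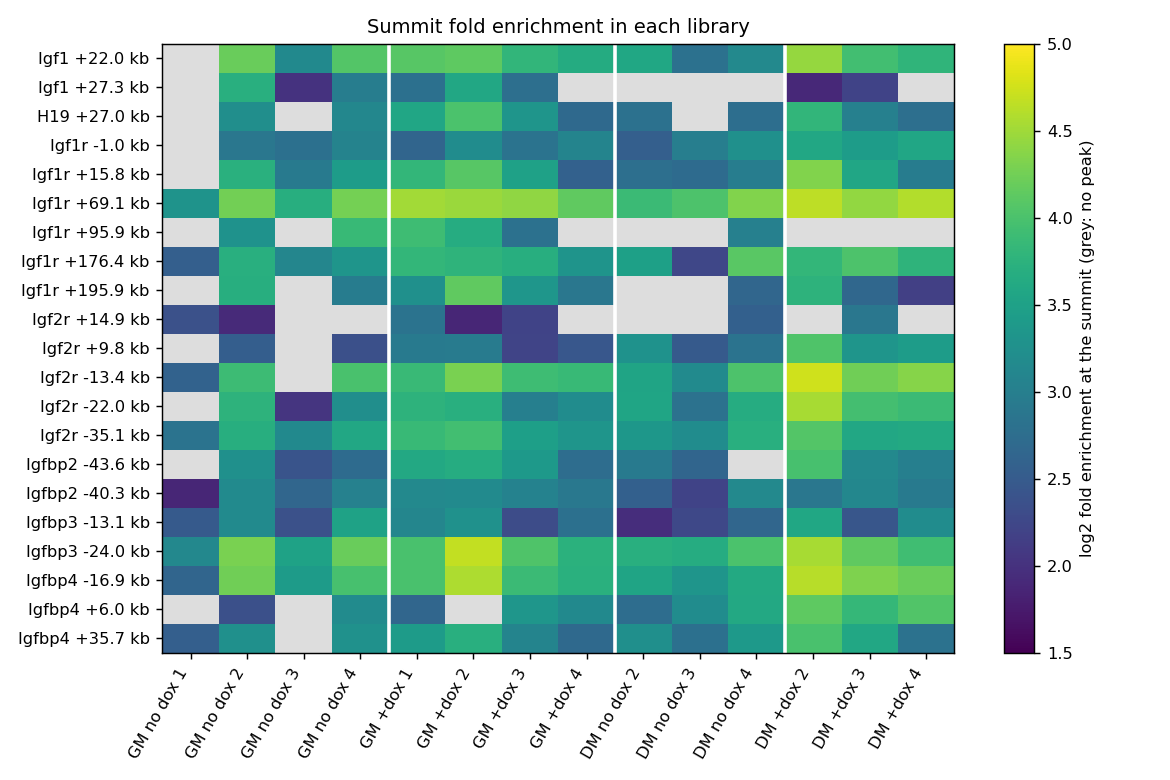
Rows are the 21 member regions found in at least 1 equal list, named by gene and distance of the summit from its start, and columns are the 14 libraries, with white lines between the groups. Colour is log2 fold enrichment at the summit as deposited, without adjustment for depth, and grey marks no peak. The Igf1r +69.1 kb and Igfbp3 −24.0 kb rows are filled in every library.

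To ask whether dox or differentiation changed how strongly regions were open, summit fold enrichment was compared on the log2 scale with limma over the 11046 regions of the genome with a peak in all 14 libraries. Only 7 member regions could be tested, since a peak was required in every library: 2 of Igf1r, 1 of Igf2r, 1 of Igfbp2, 2 of Igfbp3 and the Top2a start in the Igfbp4 window. None of the 7 passed an adjusted p of 0.05 in any of the 4 comparisons. Genome-wide, limma called 0% of regions for dox in GM, 0% when dox was added in DM, 0.317% for differentiation without dox (35 regions) and 0.0724% for differentiation with dox (8 regions). At an unadjusted p under 0.05 the genome had 670, 752, 1250 and 848 regions in these comparisons and the members 0, 1, 1 and 0. Regions absent from some lists could be included only by setting them to the lowest fold enrichment of the list. Of the 100 member regions that fit called 0 for dox in GM (0.162% of all 80290 regions) and 1 when dox was added in DM (1.09%). Between DM and GM it called 0 in the absence of dox (0.428%) and 2 in its presence (1.54%). With the replicate number as a block the genome-wide calls were 0, 7, 151 and 33, and the members still had 0. Of the 28 member values, 24 lay within 0.2 of 0 on the log2 scale.

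The 2 member values past an unadjusted p of 0.05 were these. The Igfbp3 region 13.1 kb upstream (chr11:7226367-7227708) had fold enrichments of 5.65, 8.99, 5.16 and 11.4 in GM no dox and 3.87, 4.80 and 6.31 in DM no dox, and its log2 difference was −0.67 ± 0.22 (SE, limma adjusted p = 0.224). In GM +dox it stood at 8.63, 9.64, 4.98 and 6.92 and in DM +dox at 12.1, 5.42 and 9.22, a difference of 0.13 ± 0.22 (adjusted p = 0.947). The test of the difference between the media in their response to dox gave 0.79 ± 0.31 (limma adjusted p = 0.9996), so that these contrasts were not shown to differ. The Top2a start differed by 0.37 ± 0.15 between DM +dox and DM no dox (limma adjusted p = 0.715).

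Presence was compared next, because most member regions were not called in every library. An all-or-none region had a peak in every library of 1 group and in none of the other. In the equal lists, the members had 0 such regions of 18 with a peak in either group for dox in GM (0.287% of all regions) and 0 of 14 for dox in DM (1.61%). Differentiation without dox gave 0 of 19 (2.03%) and differentiation with dox 2 of 18 (2.22% in either direction, 1.11% higher in DM). Both of the latter were higher in DM +dox than in GM +dox. They were chosen by their rank in these lists, so that their values are a description. With the strongest 7355 peaks of each library in place of 14710, neither was all-or-none (a difference in the share of libraries of 0.333 for each), and the only such member region was that at −13.4 kb from Igf2r. Igf2r −22.0 kb was also not all-or-none when peaks were ranked by fold enrichment or when all 16 libraries were used (a difference in share of 0.75 each), whereas Igfbp4 +6.04 kb was. Neither region was all-or-none in the full lists or among peaks with −log10 q of at least 5.

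The first was in intron 1 of Igfbp4, whose product binds IGFs and is cleaved by pappalysins to release them. Its summit lay 6.04 kb from the gene start and 27 bp from an alternative annotated Igfbp4 start (chr11:99047112-99048059). Fold enrichment was 5.12 and 9.15 in GM no dox replicates 2 and 4, with no peak in replicates 1 and 3. In GM +dox it was 6.29, 10.1 and 8.93 in replicates 1, 3 and 4, with no peak in replicate 2. It reached 6.75, 9.17 and 12.2 in DM no dox, and 17.5, 14.3 and 16.6 in DM +dox. Every DM +dox value as deposited exceeded every value of the other 3 groups. The region entered the equal lists of 0 of 8 GM, 2 of 3 DM no dox and, in DM +dox, 3 of 3 libraries. In the full lists the difference was smaller, with a peak in 3 of 4 GM +dox and 3 of 3 DM +dox libraries. With absent regions included, limma gave 1.25 ± 0.48 (adjusted p = 0.325) for differentiation with dox and 1.5 ± 0.48 (adjusted p = 0.371) without dox. For dox in DM this fit, on quantile normalized values, gave 0.20 ± 0.51 (limma adjusted p = 0.96), so that no change with dox was detected.

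The second was 22.0 kb upstream of Igf2r (chr17:12791479-12791783), within Airn and 2 bp from the start of the noncoding gene CT030636.1 on the opposite strand. Fold enrichment was 13.6, 4.13 and 9.35 in GM no dox replicates 2 to 4 and 13.6, 13.1, 8.04 and 9.18 in GM +dox. It was 11.8, 7.09 and 12.7 in DM no dox and 23.3, 15.5 and 14.8 in DM +dox. As at Igfbp4, the deposited values of DM +dox stood above those of the other groups, while DM no dox overlapped both GM groups. The region entered the equal lists of 0 of 8 GM libraries, of 2 of 3 in DM no dox and of all 3 in DM +dox. In the full lists it had a peak in all 7 libraries of GM +dox and DM +dox, so that the difference lay in rank and not in presence. With absent regions included, limma gave 0.58 ± 0.38 (adjusted p = 0.699) for differentiation with dox. Without dox the same fit gave 0.87 ± 0.38 (limma adjusted p = 0.672). For dox in DM it gave 0.19 ± 0.40 (limma adjusted p = 0.96). When DM no dox replicate 3 was left out, the region was also all-or-none, higher in DM, for differentiation without dox.

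**Figure D3:**
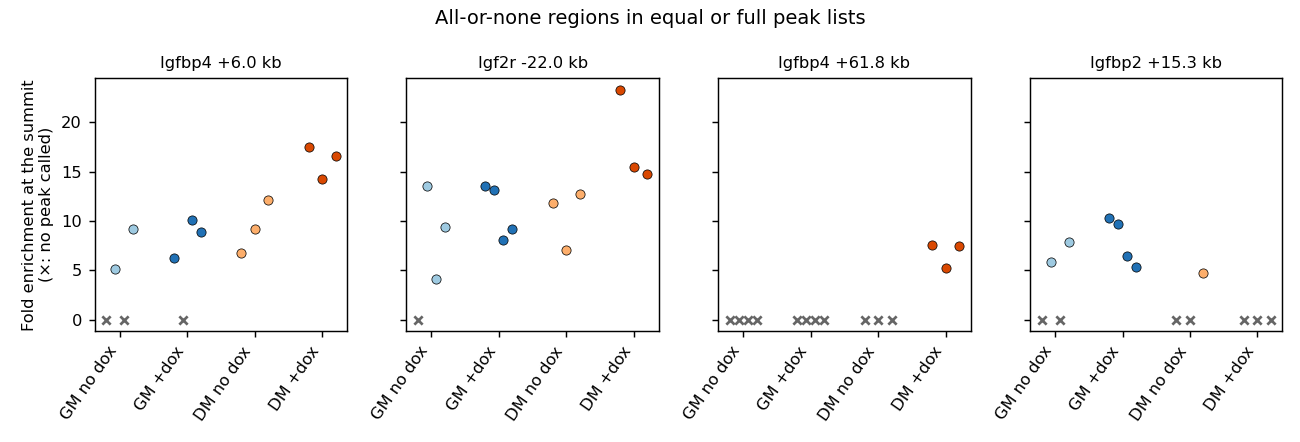
Fold enrichment at the summit, as deposited, in each of the 14 libraries (points, by group) at 4 regions named by gene and distance from its start, with a cross at 0 where no peak was called. Igfbp4 +6.0 kb and Igf2r −22.0 kb were all-or-none in the equal lists and Igfbp4 +61.8 kb and Igfbp2 +15.3 kb in the full lists, between GM +dox and DM +dox in each case.

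In the full lists more regions were all-or-none, mostly in DM. For dox in GM, 1 of 87 member regions was higher with dox (0.446% of all regions), 28.0 kb downstream of H19 in Nctc1, at fold enrichments of 3.81 to 6.53 in the 4 GM +dox libraries. For dox in DM, 7 of 74 were higher with dox (5.37%) and 0 lower. These were the Igf1 alternative start, the region 2.44 kb upstream of H19, 2 regions of Igf1r intron 2 at 53.9 and 118 kb, the Igf2r start, a region at −29.97 kb from Igf2r and 1 at 61.8 kb from the Igfbp4 start. All 7 were absent from the 3 DM no dox lists, and their fold enrichments in DM +dox were between 4.23 and 12.2. The DM +dox lists held 46241 to 51340 peaks and the DM no dox lists 23690 to 40599, so list length moved with this comparison and in equal lists none of the 7 was found in any library. Differentiation without dox gave 0 of 68 (0.411%).

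For differentiation with dox the full lists had 2 of 93 member regions higher in DM (1.49%) and 1 lower (0.319%). The Igfbp4 +61.8 kb region (chr11:99102921-99103262), beyond the neighbouring Tns4, had a peak in DM +dox only, at 7.61, 5.22 and 7.44, and in none of the other 11 libraries. It was the member region called for dox in DM when limma included absent regions (0.99 ± 0.13, adjusted p = 0.00185, 1 of 100 against 1.09% of all regions), and its value for differentiation with dox was 1.05 ± 0.12 (adjusted p = 5.23e-04). The other 11 libraries enter this fit at a floor value, so that these errors and p-values do not rest on a measured spread. The other higher region, 133 kb into Igf1r, had a peak in DM no dox replicate 4 as well. The lower region was in intron 1 of Igfbp2 (chr1:72839510-72840016), with 10.3, 9.72, 6.43 and 5.37 in GM +dox and no peak in DM +dox. It had a peak in 2 of 4 GM no dox libraries (5.85 and 7.90) and 1 of 3 DM no dox (4.73), and with absent regions included limma gave −1.40 ± 0.30 (adjusted p = 0.0411) for differentiation with dox, again with DM +dox at the floor.

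The number of peaks per window was compared last. In the full lists, Igf1 had 1, 1 and 3 peaks in DM no dox and 5, 4 and 4 in DM +dox. Igf1r had 6, 4 and 11 against 13, 13 and 14. Igf2r had 8, 4 and 10 against 14, 13 and 15, and Igfbp4 had 3, 3 and 5 against 10, 7 and 7. In these 4 genes of the 8 with a peak the DM groups did not overlap (exact permutation p = 0.1 each, two-sided, the smallest that 3 against 3 libraries allow, adjusted p = 0.397 over all genes). Over the genome 25.2% of gene windows were higher with dox in the same way. H19, Igfbp2, Igfbp3 and Igfbp5 had higher means with dox whose libraries overlapped. Compared by replicate number (2, 3 and 4), H19 had 2, 0 and 3 peaks without dox and 4, 3 and 4 with it, Igfbp2 had 4, 2 and 7 against 5, 9 and 9, and Igfbp3 had 3, 2 and 4 against 4, 3 and 6. With the 4 genes above, 7 members were thus higher with dox in all 3 pairs, as were 42.7% of all windows, and the smallest exact sign-flip p for 3 pairs is 0.25. For dox in GM, all 9 genes had a higher mean in +dox, but the libraries overlapped for every gene (0 of 9, against 1.53% of windows in either direction), with Igf1r at 2, 11, 5 and 14 without dox and 21, 13, 17 and 7 with it. Neither differentiation without dox (0 of 8, 0.294%) nor with dox (0 of 9, 3.00%) separated the groups for any member. By pairs, 4 members were lower in DM without dox (Igf1, H19, Igf1r and Igfbp2, beside 11.5% of windows of 1 sign in either direction), 2 were higher in DM with dox (Igf2r and Igfbp4, 15.8%) and none had 1 sign in all 4 pairs for dox in GM (3.59%).

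In the equal lists no member separated the groups. The count of members without overlap was 0 of 7 for dox in GM (0.415% of windows) and 0 of 6 for dox in DM (2.54%). It was 0 of 6 for differentiation without dox (3.04%) and 0 of 7 for differentiation with dox (3.03%). Igf1r, for example, had 2, 2 and 2 peaks in DM no dox and 2, 3 and 3 in DM +dox. By pairs, 0 members had 1 sign in every pair for dox in GM (1.30% of windows) and 0 for dox in DM (5.26%). Igf2r and Igfbp4 were higher and Igf1 lower in DM no dox than in GM no dox in every pair (3 members, 7.56%), and Igfbp4 was higher in DM +dox than in GM +dox (1 member, 6.73%). The lowest exact permutation p was 0.171, for Igfbp4 with 1, 2, 1 and 1 peaks in GM +dox and 3, 2 and 2 in DM +dox (smallest possible 0.0571 for 3 against 4 libraries), adjusted p = 1 over all genes. Taking the 9 windows together, the full lists of GM libraries held 32.8 ± 22.9 peaks without dox and 51.8 ± 13.6 with it (SD, n = 4 each). Those of DM held 28.7 ± 13.6 and 55.3 ± 3.51 (n = 3 each). The equal lists held 8.75 ± 1.26, 9.0 ± 2.0, 8.67 ± 2.08 and 9.67 ± 2.08.

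**Figure D4:**
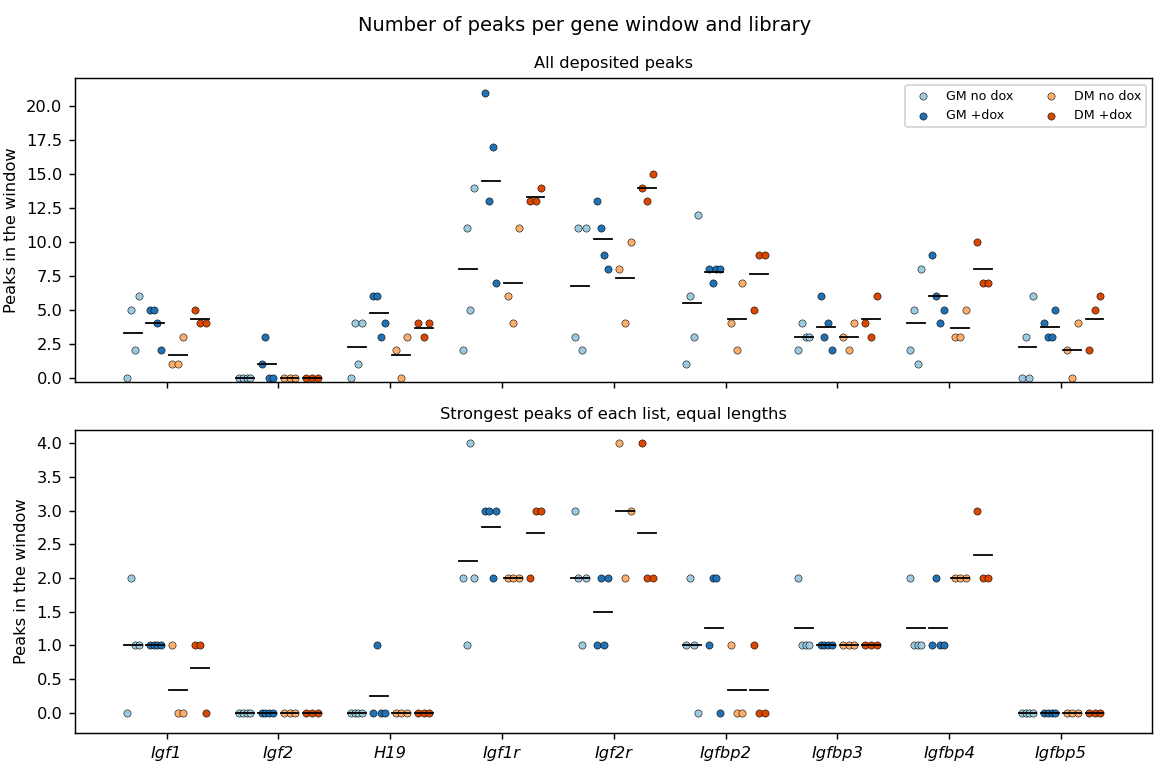
Peaks per gene window in each of the 14 libraries (points, coloured by group, with the mean as a bar), from all deposited peaks above and from the 14710 strongest peaks of each library below. Igf1, Igf1r, Igf2r and Igfbp4 separate DM +dox from DM no dox in the upper panel and none does in the lower.

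**Figure D5:**
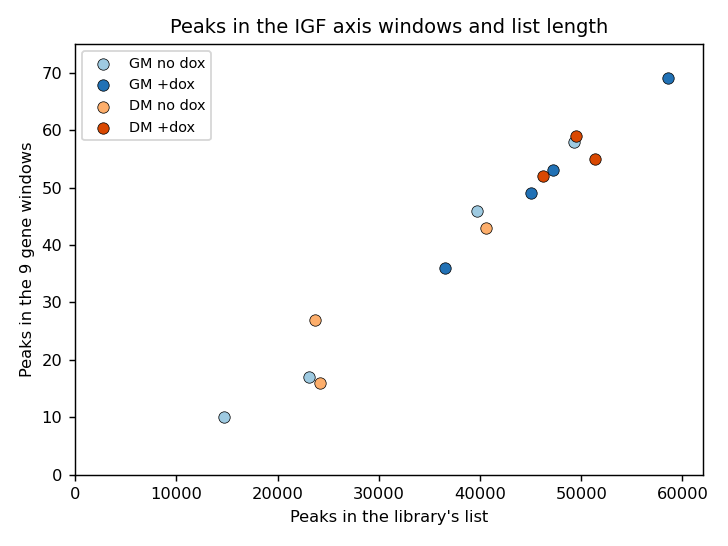
Number of peaks in the 9 gene windows (vertical axis, full lists) against the number of peaks in the library's list (horizontal axis), 1 point for each of the 14 libraries, coloured by group. Libraries with longer lists had in general more peaks in the windows, from 10 in the list of 14710 peaks to 69 in that of 58587.

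The 34 other genes of the pathway, from the insulin receptor and IGF2 mRNA-binding proteins to AKT and mTOR components, were compared in the same way. In the equal lists an all-or-none region was found near 1 of the 34 for dox in GM (Igfals, lower with dox), near 1 for dox in DM (Igfbp6, higher), near 2 for differentiation without dox (Shc1 higher, Igfbp6 lower in DM) and near 2 for differentiation with dox (Tsc2 higher, Igf2bp3 lower in DM). Of all regions of the genome, 0.287%, 1.61%, 2.03% and 2.22% were all-or-none in these comparisons. A window of these genes held 4 to 38 regions of the full lists. The share of all gene windows with such a region was not computed, so these counts are a description. Peak numbers in the full lists were higher with dox in DM, without overlap, for 10 of the 34, beside 25.2% of all windows. For dox in GM 1 was higher in the full lists (Pik3r1, 1.53% of windows in either direction). For differentiation with dox 1 was higher (Insr) and 1 lower (Dlk1) in them (3.00%), and without dox 0 (0.294%). In the equal lists 0 were higher and 1 lower for dox in DM (Pappa2, 2.54% of windows in either direction). Differentiation with dox gave 1 higher (Pdpk1) and 1 lower (Igf2bp3) there (3.03%). Dox in GM (0.415%) and differentiation without dox (3.04%) gave 0 in the equal lists.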

How the data were processed

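ATAC-seq peak lists of 16 libraries were used. The authors processed reads with nf-core/atacseq on mm10, removed blacklisted regions and ran MACS2 in narrow mode library by library. A deposited list holds positions, a score, a fold enrichment over background (a ratio), and −log10 p and q, with summits. The deposited −log10 p served to rank peaks and the score was only read. The lowest deposited −log10 q was 1.30. No read counts were used. Background coverage was recovered from fold and p, from which fragments per summit followed. No 2 of the 16 lists were identical (120 pairs), and none of the peaks passed a chromosome end of GRCm38.p6, the assembly read for sequence.

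Genes came from GENCODE M21. Peaks of 14 lists were merged wherever they overlapped. Summit strength (log2 fold enrichment, quantile normalized, regions with a peak in all 14 libraries) was tested with limma 3.58.1 in R 4.3.3, in which the 4 groups share their spread, with Benjamini-Hochberg adjustment over 11046 regions. Peak numbers were tested per gene with two-sided exact permutation tests, adjusted over all genes with a peak. All-or-none counts have no test. Same-numbered libraries deviated together (correlations of 0.106 to 0.465, each over 0.1), and a fit blocked by number was an alternative. Correlations between libraries of different number were not computed, so whether the numbers pair libraries was not tested. Other alternatives were list length, ranking, q threshold, window, merging, centring, all 16 libraries and leaving out each library. Scripts (Python 3.11.15) were tested on simulated data.

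Members, gene lists and tests were chosen with earlier results of these data known. Regions named are those at member starts, the strongest of each member and those called. The regions all-or-none only in full lists, and a few regions beside these, were named after their values were seen.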

Additional observations from a re-analysis of the deposited data

Results flagged for a closer look

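In the groups of 4 libraries, 7 of 41 values checked for a library far from the other 3 were marked. Where 3 libraries share a count, the rule marks the remaining library at any difference. The usual rate of about 1 in 20 therefore does not hold for such counts, and the number of marks is not compared with it. In the equal lists, GM +dox replicate 2 had 1 peak in the H19 window where the other 3 had 0, and 2 in the Igfbp4 window where the others had 1. GM +dox replicate 3 had 2 peaks in the Igf1r window where the others had 3. GM no dox replicate 1 had 2 peaks in the Igfbp3 window and 2 in the Igfbp4 window where the others had 1. In the full lists, GM +dox replicate 2 had 7 peaks in the Igfbp2 window where the others had 8. At the region 13.4 kb upstream of Igf2r its fold enrichment was 19.6 where the others lay between 14.5 and 15.1. Most of these are differences of a single peak.

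At the region 61.8 kb from the Igfbp4 start, the fit that included regions absent from some libraries gave a difference between the media in the response to dox of 1.08 ± 0.17 on the log2 scale (SE, limma adjusted p = 0.0153), a fit that called 0.305% of all regions. It had a peak in 3 of 3 DM +dox libraries and in none of the other 11, which enter at a floor value, so that this error and p do not rest on a measured spread. It was in no equal list.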

How the results depend on the processing

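Of 192 comparisons of a count with its alternative, 171 were equal or within 1.5 times. The only main count above 0 was that of all-or-none regions for differentiation with dox. Most of the 171 were therefore a 0 that stayed 0, for which a ratio has no meaning. The all-or-none count for dox in GM went from 0 to 1 in full lists. For dox in DM it went from 0 to 7 in full lists and 8 with −log10 q of at least 5. For differentiation with dox it went from 2 to 1 with 7355 peaks a list (Igf2r −13.4 kb, with neither of the 2 regions), and to 1 ranked by fold enrichment and with all 16 libraries (Igfbp4 +6.04 kb, without Igf2r −22.0 kb). With −log10 q of at least 5 the regions were Igf1r +133 kb, Igfbp4 +61.8 kb and Igf2r −29.97 kb. In full lists they were Igf1r +133 kb, Igfbp4 +61.8 kb and, lower, Igfbp2 +15.3 kb. The count there moved little, but neither of the 2 regions was among them. Without each library in turn it was 0 to 1 for dox in DM (1 without DM +dox replicate 2), 0 to 1 for differentiation without dox (1 without replicate 2 or 3 of DM no dox, and 1 without GM no dox replicate 4), 0 for dox in GM and 2 for differentiation with dox.

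The number of members whose peak counts did not overlap went from 0 to 4 for dox in DM in full lists and with −log10 q of at least 5. For differentiation with dox it went from 0 to 1 with 7355 peaks a list and within 10 kb. Leaving out libraries gave 0 to 1 for dox in DM (without DM +dox replicate 2), for differentiation without dox (without GM no dox replicate 1) and for differentiation with dox (without GM +dox replicate 2). In the replicate block of equal lists, paired numbers all differed the same way for 3 members (Igf1, Igf2r and Igfbp4) for differentiation without dox and for 1 (Igfbp4) with dox. In full lists this held for 7 members against 4 without pairing for dox in DM, 4 against 0 for differentiation without dox and 2 against 0 with dox. The smallest exact sign-flip p is 0.25 for 3 pairs, and the block changed no limma call of a member region.

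In limma, including absent regions called 1 of 100 member regions for dox in DM (1.09% of all regions) and 2 for differentiation with dox (1.54%), and all other settings, among them a measure of summit fragments over background coverage chosen after seeing the data, called 0. The cause of these moves was not tested. Full and equal lists differ both in length and in the weak peaks they hold. Depth limits absence: a region without a peak may be open below the caller's threshold, and 93 of 100 member regions lacked a peak in some library and so could not be tested for strength.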
